A study of Mus musculus with 4 samples.

Results

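The 10 genes described here are 4 genes of the primitive endoderm programme, the transcription factor genes Gata6, Gata4 and Sox17 and the receptor gene Pdgfra, and 6 genes of the basement membrane and of collagen maturation, Col4a1, Col4a2, Lamc1, Lamb1, Nid1 and P4ha2. They were taken by symbol from the 55453 gene rows of the count matrices, and all 10 were found in each of the 4 plates. The wells came from mouse embryos that had received a morpholino, an antisense oligonucleotide that blocks translation or splicing of its target RNA. The NKX1-2 morpholino targets the homeobox factor NKX1-2 and was in the odd wells, and a control morpholino was in the even wells of the same plate. There were 2 plates of blastocyst wells and 2 plates of morula wells, so 4 groups: blastocyst with NKX1-2 morpholino, blastocyst with control morpholino, morula with NKX1-2 morpholino and morula with control morpholino. Both arms were injected. The sources used here give no mouse strain, no embryo age in days and no number of embryos per plate.

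The primitive endoderm is the epithelium that forms from the inner cell mass of the blastocyst, on the side of the blastocoel, and later gives the yolk sac endoderm. GATA6 is expressed broadly in the morula and early inner cell mass, is then restricted to primitive endoderm precursors while NANOG is kept in the epiblast, and is followed by SOX17 and GATA4. PDGFRA, a receptor tyrosine kinase, marks the same precursors. The layer is known for secreting a basement membrane, in which laminin trimers and a type IV collagen network are joined by nidogen, and prolyl 4-hydroxylases modify the collagen chains so that they can fold.

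Each plate held 96 barcodes, 48 for each morpholino, and the same 96 barcodes were used in all 4 plates. Of 384 wells, 368 had at least 2000 detected genes and were kept: 91 blastocyst wells with NKX1-2 and 86 with control morpholino, 95 morula wells with NKX1-2 and 96 with control morpholino. Adding up the wells of each morpholino in each plate gave 8 sums, from 1084312 to 2398605 counts. The median well held 22391 to 37602 counts in the 4 blastocyst groups and 41251 to 48648 in the 4 morula groups, so depth moved with stage. Nkx1-2 had 0 counts in all wells, so its level checks no label. Wells are not replicates here. The plate is the replicate (n = 2 per stage). P-values of the stage comparisons measure the spread between the 2 plates of a stage, which may be technical. Those of the morpholino comparisons measure how the difference between the arms of a plate varies. Their estimate of the spread is shared by both stages. The labels call the source single cells, but a lower sum could reflect fewer cells of a type or less RNA per cell, and these cannot be told apart.

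Against the label of primitive endoderm, 2 of the factors that define the layer were near 0 in the blastocyst: over 177 wells, Sox17 had 5 counts and Gata4 had 7. Of 23 other primitive endoderm genes, 13 had at most 6 blastocyst counts, among them the factor genes Foxa2, Sox7 and Hnf4a (0, 0 and 3 counts) and the secreted-protein genes Ttr and Afp (0 and 4). The other 10 had 26 to 1602 counts, among them Lrp2 (807), Dab2 (804), Apoa1 (306) and Cubn (44). No well is called a primitive endoderm cell below. Among markers of cells that could come along with embryos, cumulus and granulosa genes summed to 0 to 2.05 counts per 1000000 counts of the sum (CPM) per blastocyst sum and 0.417 to 0.961 CPM per morula sum, and 6 of these 10 genes had 0 counts. Blood genes summed to 4.61 to 6.37 CPM per blastocyst sum and 3.34 to 11.6 CPM per morula sum, as high as several members. Most of this was the globin gene Hba-a1, with 25 blastocyst and 47 morula counts and a log2 fold change of -1.36 for NKX1-2 over control in the morula (SE 0.54, edgeR adjusted p = 0.343). The part of such cells in the members' levels was not tested.

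Gata6 was the most abundant of the factors and was lower in the blastocyst than in the morula. The NKX1-2 sums of the blastocyst plates held 127 and 136 CPM and their control sums 97.8 and 152 CPM, against 285 and 243 CPM in the NKX1-2 sums and 270 and 247 CPM in the control sums of the morula plates. Every blastocyst sum lay below every morula sum, and within a stage the sums of the 2 morpholinos overlapped. Means were 132 ± 6.37 and 125 ± 38.3 CPM in blastocyst NKX1-2 and control wells, and 264 ± 29.9 and 259 ± 16.2 CPM in morula NKX1-2 and control wells (SD, n = 2 plates each). A Gata6 count was found in 160 of 177 blastocyst wells (90.4%) and in 191 of 191 morula wells. At a common 10000 counts per well the expected share of wells with a count was 68.5% in the blastocyst and 88.7% in the morula. Of the 17 blastocyst wells without a Gata6 count, 15 were in plate 1. The highest well held 14 Gata6 counts in the blastocyst and 39 in the morula.

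**Figure D1:**
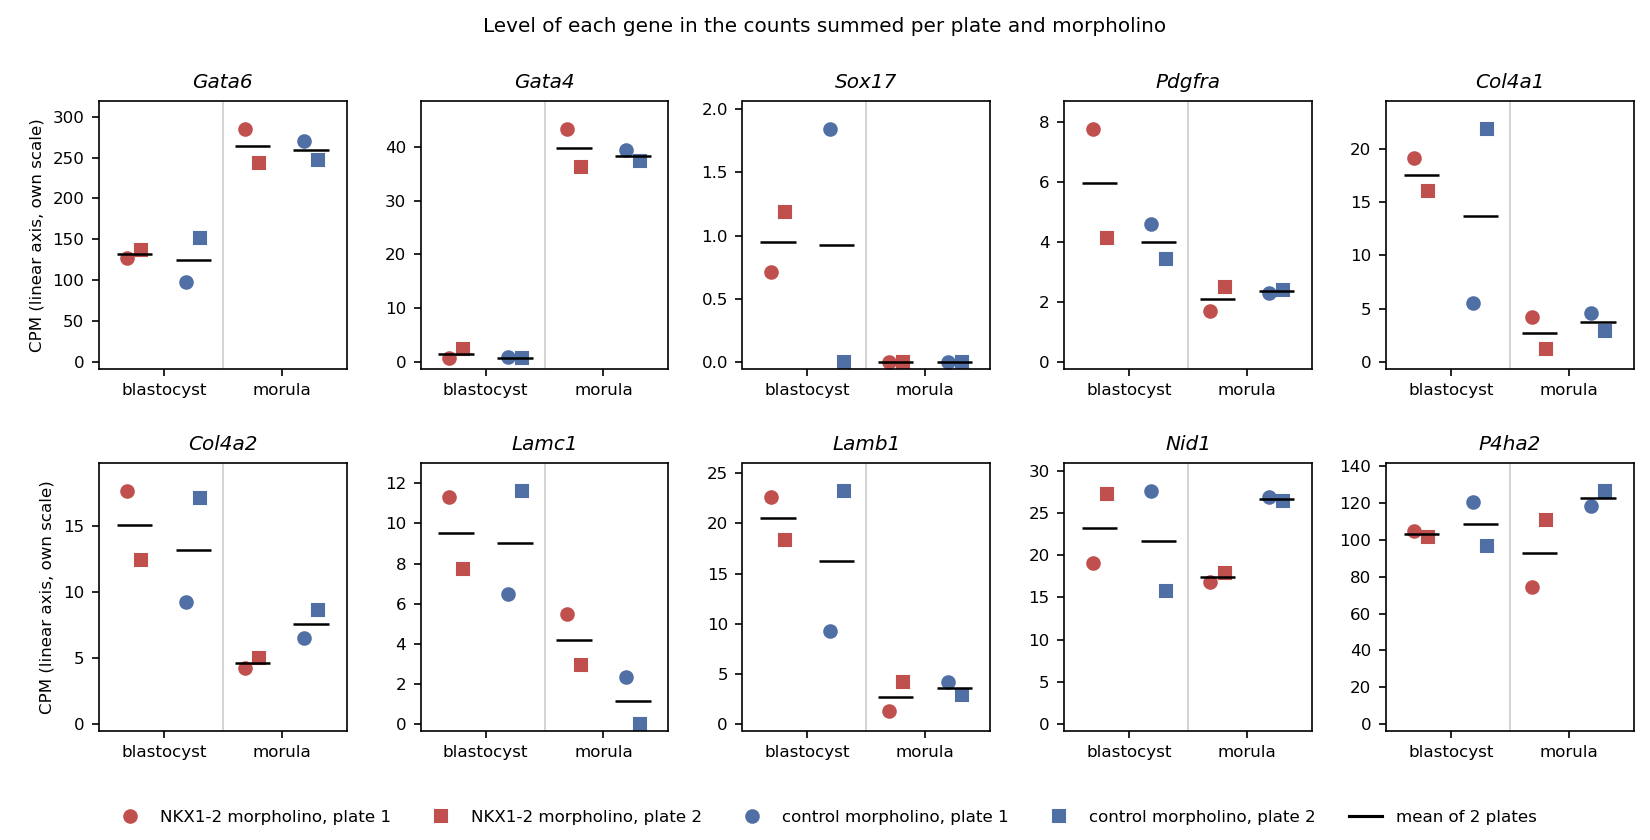
Level of each of the 10 genes, in CPM on a linear axis with its own scale per panel, in the counts summed per plate (circle, plate 1; square, plate 2) and morpholino (red, NKX1-2; blue, control), with the mean of 2 plates as a bar. Gata6 and Gata4 sit lower in all blastocyst sums than in all morula sums, and Lamb1 and Col4a2 sit higher, while control plate 1 of the blastocyst is low for Col4a1 (5.53 CPM) and Lamb1 (9.22 CPM).

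Gata4, which encodes the GATA factor that follows GATA6 in this lineage, was nearly absent from the blastocyst. The blastocyst sums held 0.708 and 2.37 CPM with NKX1-2 and 0.922 and 0.684 CPM with control morpholino, against 43.4 and 36.3 CPM with NKX1-2 and 39.4 and 37.5 CPM with control morpholino in the morula. It was found in 6 of 177 blastocyst wells and in 141 of 191 morula wells, and at 10000 counts per well the shares were 1.41% and 30.7%. The groups did not overlap, and no blastocyst well held more than 2 counts. The ratio of blastocyst to morula CPM was 0.0405 in NKX1-2 wells (95% counting interval 0.0130 to 0.0963, from 5 and 190 counts) and 0.0204 in control wells (0.00245 to 0.0750, from 2 and 163 counts). Intervals of this kind cover counting error only. Both genes encode zinc finger factors that bind the same core motif. In GRCm38, Gata6 lies at chr18:11052064-11085635 on the plus strand and Gata4 at chr14:63198922-63271692 on the minus strand.

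Across the stages, the 2 tested factors both passed. With edgeR's quasi-likelihood test and Benjamini-Hochberg adjustment over all genes tested, Gata6 fell by 0.72 on the log2 scale in NKX1-2 wells (SE 0.16, adjusted p = 0.00128) and by 0.74 in control wells (SE 0.20, adjusted p = 0.00564). Gata4 fell by 4.30 in NKX1-2 wells (SE 0.48, adjusted p = 1.19e-06) and had a log2 fold change of -5.20 in control wells (SE 0.60, adjusted p = 2.81e-07). Without blastocyst plate 1, Gata6 no longer passed in NKX1-2 wells (log2 fold change -0.64, edgeR adjusted p = 0.0567) or in control wells (-0.49, adjusted p = 0.0522). Gata4 passed in both fits whichever of the 4 plates was left out.

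Sox17, the HMG box factor of the definitive and extraembryonic endoderm, was barely detected. Its 5 counts came from 3 blastocyst wells, with 1 and 2 counts in the NKX1-2 wells of plates 1 and 2 and 2 counts in a control well of plate 1. In the morula it was found in 0 of 191 wells, which, taking 3 wells as the floor, allows a share of wells with a count of up to 1.57%. This is no limit on wells that express the gene. The 3 wells all held Gata6 and P4ha2, 2 of them held Pdgfra, and none held Gata4 or Sox2. Sox17 lies at chr1:4490931-4497354 on the minus strand, and 16.9% of its exonic bases are overlapped by Gm37587 on the opposite strand. The use of strand in the counting is not given in the sources used here, so these 5 counts cannot be assigned to Sox17 alone.

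Pdgfra was rare at both stages. The blastocyst sums held 7.79 and 4.15 CPM with NKX1-2 and 4.61 and 3.42 CPM with control morpholino, against 1.69 and 2.501 CPM with NKX1-2 and 2.32 and 2.40 CPM with control morpholino in the morula. All 4 blastocyst sums were above all 4 morula sums, yet these values rest on 28 and 20 counts. The share of wells was 10.7% (19 of 177) in the blastocyst and 9.42% (18 of 191) in the morula. At 10000 counts per well it was 4.03% and 2.03%. Pdgfra and Sox17 were removed as low counts before each main fit. Without that filter, Pdgfra had log2 fold changes across the stages of 1.62 in NKX1-2 wells (SE 0.65, edgeR adjusted p = 0.0648) and 0.89 in control wells (SE 0.76, edgeR adjusted p = 0.548). Sox17, near 0 counts, had 4.12 (SE 2.35, edgeR adjusted p = 0.258) and 3.66 (SE 2.67, edgeR adjusted p = 0.454). None of these values passed. Pdgfra lies at chr5:75152292-75198215 on the plus strand, with 6.21% of its exonic bases under genes of the opposite strand. Of its ligand genes, Pdgfa had 500 counts in the blastocyst and 666 in the morula. Its log2 fold change was 0.45 in NKX1-2 wells (SE 0.20, edgeR adjusted p = 0.0721) and 0.68 in control wells (SE 0.24, edgeR adjusted p = 0.0254), and only the control value passed. Pdgfb had 4 and 38 counts, Pdgfc had 2 and 0, and Pdgfd and the receptor gene Pdgfrb had 0.

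The type IV collagen genes rose between the stages. Col4a1 and Col4a2 encode the alpha 1 and alpha 2 chains, which together form the trimer of most basement membranes. They lie head to head on mouse chromosome 8, Col4a1 at chr8:11198423-11312826 on the minus strand and Col4a2 at chr8:11312805-11449287 on the plus strand, with start sites 21 bases apart. Their RefSeq promoter windows (GRCm38.p6, 250 bases before to 50 after the start) are shown because both genes moved the same way between the stages. The capitals mark the 78 bases, chr8:11312777-11312854, that both windows hold, each read on the strand of its own gene.
Col4a1: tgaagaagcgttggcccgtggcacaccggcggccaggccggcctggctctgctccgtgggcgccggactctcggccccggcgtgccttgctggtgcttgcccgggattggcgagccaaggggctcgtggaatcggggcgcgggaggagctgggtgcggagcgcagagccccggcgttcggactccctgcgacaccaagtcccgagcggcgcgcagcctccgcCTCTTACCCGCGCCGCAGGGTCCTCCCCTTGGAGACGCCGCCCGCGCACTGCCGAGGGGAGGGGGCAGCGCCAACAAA
Col4a2: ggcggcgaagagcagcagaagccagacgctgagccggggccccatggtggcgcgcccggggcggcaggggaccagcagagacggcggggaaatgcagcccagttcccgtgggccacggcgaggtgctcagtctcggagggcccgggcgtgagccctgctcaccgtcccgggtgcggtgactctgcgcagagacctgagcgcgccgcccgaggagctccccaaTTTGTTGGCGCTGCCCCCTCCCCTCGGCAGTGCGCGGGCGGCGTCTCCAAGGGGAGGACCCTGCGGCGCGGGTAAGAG
The first is chr8:11312777-11313076 on the minus strand and the second chr8:11312555-11312854 on the plus strand. The shared stretch holds 1 GC box (GGGCGG or its reverse complement CCGCCC) and 1 CTC box (CCCTCCCC or its reverse complement GGGGAGGG), which do not overlap each other. It holds no CCAAT box (CCAAT or ATTGG) and no GATA site (AGATAA or TTATCT). Of 32851 windows of this length, 35.66% hold the GC box, 10.77% the CTC box, 37.41% the CCAAT box and 11.18% the GATA site on either strand. Windows were matched for 6 of the 10 genes, Pdgfra, Col4a1, Col4a2, Lamb1, Nid1 and P4ha2, and the letters of the GATA site were in none of the 6.

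Col4a1 held 19.1 and 16.0 CPM in the NKX1-2 sums and 5.53 and 21.9 CPM in the control sums of the blastocyst plates, against 4.21 and 1.25 CPM in the NKX1-2 sums and 4.64 and 2.88 CPM in the control sums of the morula plates. Wells with a count were 61 of 177 in the blastocyst (34.5%) and 21 of 191 in the morula (10.99%), and at 10000 counts per well 14.1% and 2.97%. Every blastocyst sum was above every morula sum, although control plate 1 of the blastocyst exceeded the highest morula sum only slightly. In NKX1-2 wells Col4a1 rose by 2.93 on the log2 scale (SE 0.49, edgeR adjusted p = 0.000108). In control wells the filter on low counts removed it. In a fit without that filter its log2 fold change was 2.09 (SE 0.51, edgeR adjusted p = 0.000563), and the ratio of summed CPM was 3.96 (95% counting interval 2.15 to 7.60).

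Col4a2 held 17.7 and 12.5 CPM in the NKX1-2 sums and 9.22 and 17.1 CPM in the control sums of the blastocyst, against 4.21 and 5.003 CPM in the NKX1-2 sums and 6.49 and 8.65 CPM in the control sums of the morula. Blastocyst sums again lay above morula sums, with control plate 1 of the blastocyst just above control plate 2 of the morula. It rose by 1.96 in NKX1-2 wells (SE 0.43, edgeR adjusted p = 0.00122) and by 1.13 in control wells (SE 0.45, edgeR adjusted p = 0.0499). The control call was lost at a similar fold with DESeq2 (1.11, adjusted p = 0.260), without the filter on low counts (1.00, edgeR adjusted p = 0.131), with every well (1.11, adjusted p = 0.0520) and without the highest well (1.15, adjusted p = 0.0569). It was also lost without morula plate 1 (0.87, adjusted p = 0.307), morula plate 2 (1.33, adjusted p = 0.112) or blastocyst plate 2 (0.62, adjusted p = 0.470).

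Lamb1 and Lamc1 encode the beta 1 and gamma 1 chains that most basement membrane laminins share. Lamb1 held 22.7 and 18.4 CPM in the NKX1-2 sums and 9.22 and 23.3 CPM in the control sums of the blastocyst, against 1.26 and 4.17 CPM in the NKX1-2 sums and 4.17 and 2.88 CPM in the control sums of the morula. The stages did not overlap. Lamb1 rose by 3.16 in NKX1-2 wells (SE 0.48, edgeR adjusted p = 4.00e-05) and by 2.52 in control wells (SE 0.51, edgeR adjusted p = 0.000420), and the control call was lost without blastocyst plate 2 (1.71, adjusted p = 0.0828). A single NKX1-2 well of plate 2 held 7 Lamb1 counts, the most of any blastocyst well.

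Lamc1 held 11.3 and 7.71 CPM in the NKX1-2 sums and 6.46 and 11.6 CPM in the control sums of the blastocyst, against 5.48 and 2.92 CPM in the NKX1-2 sums and 2.32 and 0 CPM in the control sums of the morula. No morula well held more than 1 count of it. Lamc1 rose by 1.43 in NKX1-2 wells (SE 0.48, edgeR adjusted p = 0.0215) and by 3.20 in control wells (SE 0.71, edgeR adjusted p = 0.00102). The NKX1-2 call was lost with DESeq2 (1.47, adjusted p = 0.166), without blastocyst plate 1 (1.18, edgeR adjusted p = 0.212), blastocyst plate 2 (1.69, adjusted p = 0.0753) or morula plate 2 (1.04, adjusted p = 0.186), and the control call without morula plate 2 (2.24, adjusted p = 0.0640), the control sum of which is the 1 with 0 counts. In the control fit without blastocyst plate 2, Lamc1 fell under the count filter and was not tested. Lamb1 lies at chr12:31265234-31329644 on the plus strand and Lamc1 at chr1:153218922-153332786 on the minus strand, and neither shares exonic bases with another annotated gene.

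Nid1 and P4ha2 did not pass in either stage comparison, and how they differ from the collagen and laminin chains was not tested. Nid1 encodes nidogen, the protein that ties the laminin network to type IV collagen. It held 19.1 and 27.3 CPM in the NKX1-2 sums and 27.7 and 15.7 CPM in the control sums of the blastocyst, against 16.9 and 17.9 CPM in the NKX1-2 sums and 26.9 and 26.4 CPM in the control sums of the morula. The stages overlapped, and the log2 fold change was 0.71 in NKX1-2 wells (SE 0.32, edgeR adjusted p = 0.0794) and -0.03 in control wells (SE 0.35, edgeR adjusted p = 0.958). The share of wells with a Nid1 count was lower in the blastocyst as counted, 46.3% against 58.6%, but 19.7% against 19.9% at 10000 counts per well.

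P4ha2 encodes a catalytic alpha subunit of collagen prolyl 4-hydroxylase and was among the abundant members at every stage. It held 105 and 101 CPM in the NKX1-2 sums and 121 and 96.5 CPM in the control sums of the blastocyst, against 74.6 and 111 CPM in the NKX1-2 sums and 119 and 127 CPM in the control sums of the morula. It was found in 164 of 177 blastocyst wells and 185 of 191 morula wells. The log2 fold change was 0.43 in NKX1-2 wells (SE 0.21, edgeR adjusted p = 0.0953) and 0.12 in control wells (SE 0.21, edgeR adjusted p = 0.682). Without morula plate 2 the NKX1-2 change passed (0.73, edgeR adjusted p = 0.0248). Nid1 lies at chr13:13437551-13512269 and P4ha2 at chr11:54100095-54131665, both on the plus strand.

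**Figure D2:**
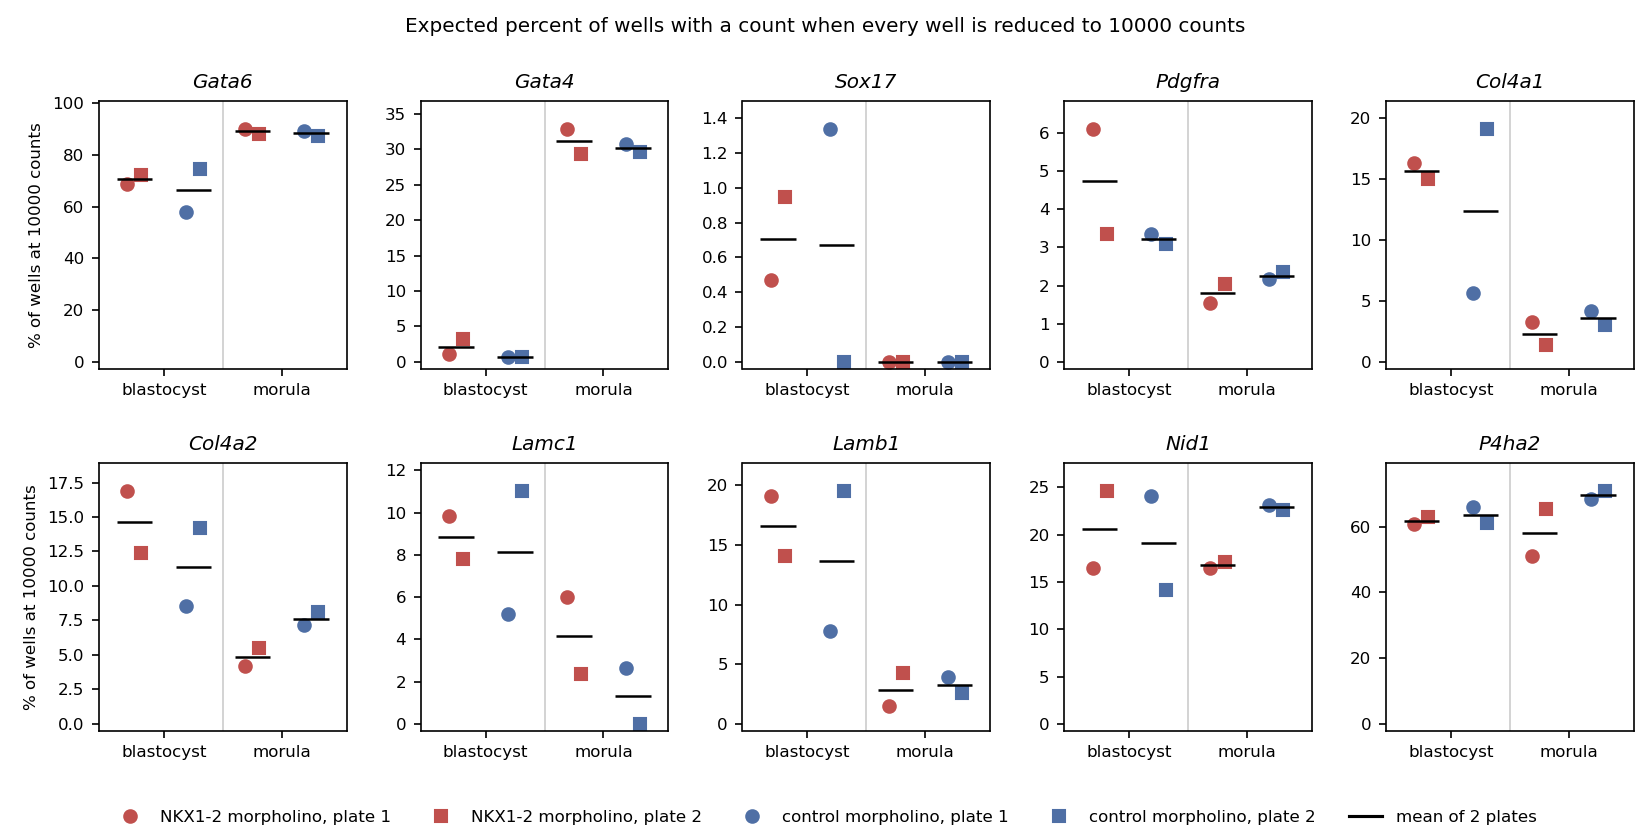
Expected percent of wells with a count of each gene when every well is reduced to 10000 counts (linear axes, own scale per panel), by stage, morpholino and plate, with the mean of 2 plates as a bar. At equal depth Gata4 is at 0.639% to 3.17% in the blastocyst groups and 29.3% to 32.9% in the morula groups, while Nid1 and P4ha2 overlap between the stages.

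Per length, the order of the members was led by the same pair at both stages. Division by length suits counts of reads from whole transcripts. The sources used here do not settle whether these are such counts, so the order per length may not hold. In CPM per kilobase of merged exons, Gata6 had 20.3 ± 0.979 in blastocyst NKX1-2 wells and 19.2 ± 5.89 in blastocyst control wells, and 40.6 ± 4.59 and 39.8 ± 2.49 in the morula groups (SD, n = 2 plates). P4ha2 came next, at 16.5 ± 0.378 and 17.4 ± 2.76 in the blastocyst groups and 14.9 ± 4.11 and 19.7 ± 0.923 in the morula groups. In blastocyst control wells the plates of these genes overlapped, 15.0 to 23.3 for Gata6 and 15.5 to 19.4 for P4ha2. Gata4 ranked 3 of 10 in the morula, at 10.2 ± 1.29 and 9.84 ± 0.351, and 9 of 10 in the blastocyst, at 0.395 ± 0.302 and 0.206 ± 0.0431. Nid1 ranked 3 in the blastocyst, at 3.34 ± 0.833 and 3.13 ± 1.21, and its plates overlapped there with those of Col4a1, Col4a2 and Lamb1 in control wells and with none of the 3 in NKX1-2 wells. Col4a1, Col4a2 and Lamb1, at 1.64 to 2.35 per kilobase as blastocyst means, overlapped among themselves, and Lamc1, Pdgfra, Gata4 and Sox17 followed.

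Counted over the members, the stage comparison in NKX1-2 wells called 6 of 8 tested genes, beside 45.9% of all 10221 genes tested. Of these, 4 were higher in the blastocyst (Col4a1, Col4a2, Lamc1, Lamb1; 21.9% of all genes were called higher) and 2 lower (Gata6, Gata4; 24.0% were called lower). In control wells 5 of 7 tested members were called, beside 41.7% of 9577 genes, 3 higher (20.1% of all genes) and 2 lower (21.6% of all genes). The filter on low counts kept a gene if its counts were high enough in the sums of either stage. A gene with few morula counts was therefore tested only if it was high enough in the blastocyst. Counts of members called higher are thus no support for a rise of the group, and the same holds for the gene lists below. The median log2 fold change was 1.07 over the 8 members and -0.02 over all genes in NKX1-2 wells, and 0.12 over the 7 members and -0.01 over all genes in control wells. Plates differ between the stages, so plate and stage cannot be told apart. Without blastocyst plate 2, Gata6 and Gata4 were the 2 called in control wells, of 7 members that then included Col4a1 and not Lamc1. Lineage markers moved with stage as well. The epiblast list summed to 1107 to 1212 CPM in the blastocyst sums and 2016 to 2216 CPM in the morula sums, with 4 of 13 tested genes higher and 5 lower in NKX1-2 wells. The trophectoderm list summed to 733 to 945 CPM in the blastocyst and 791 to 876 CPM in the morula, with 8 of 14 higher and 3 lower in NKX1-2 wells. Their part in the members' changes was not tested.

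**Figure D3:**
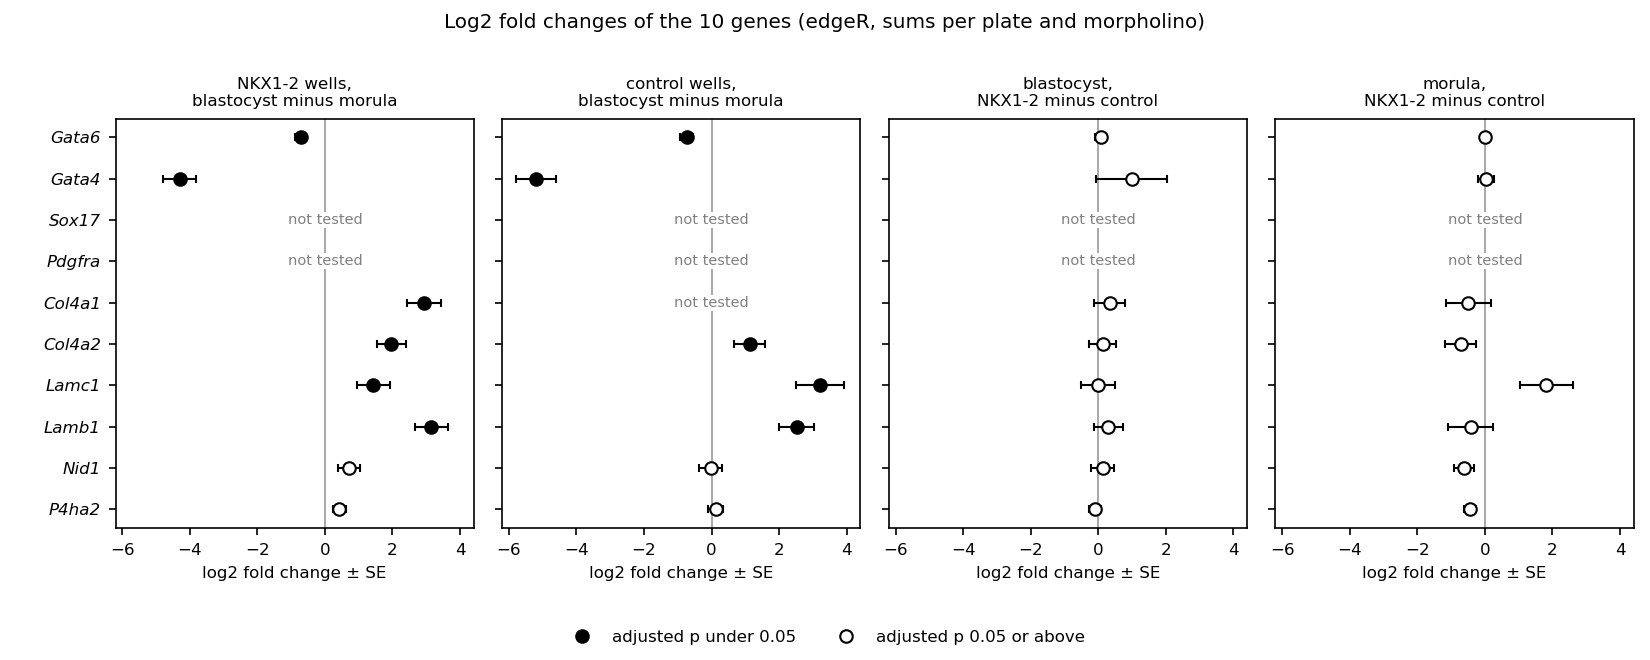
Log2 fold change with its standard error for each gene in 4 comparisons from edgeR, on a linear axis of log2 units; filled points have an adjusted p under 0.05, open points do not, and genes under the count filter are written as not tested. Both stage panels show Gata6 and Gata4 lower and Col4a2, Lamc1 and Lamb1 higher in the blastocyst, and no point is filled in either morpholino panel.

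For the NKX1-2 morpholino in the blastocyst, no member passed the threshold. Of 8 tested members 0 were called, beside 0.727% of 10873 genes, and 0 of 8 had an unadjusted p under 0.05, beside 13.7% of all genes. DESeq2 also called 0. Log2 fold changes were 0.07 for Gata6 (SE 0.16), 0.99 for Gata4 (SE 1.06), 0.34 for Col4a1 (SE 0.45), 0.13 for Col4a2 (SE 0.41) and 0.30 for Lamb1 (SE 0.43), and the lowest edgeR adjusted p was 0.727. For Lamc1 the value was -0.00 (SE 0.50), for Nid1 0.13 (SE 0.34) and for P4ha2 -0.09 (SE 0.18). At such a share over all genes, no call among 8 members is no finding about them. A p above the threshold does not show that the arms are alike.

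In the blastocyst the 2 plates went opposite ways for the collagen and laminin chains. In plate 1 NKX1-2 wells were higher than control wells by 1.58 for Col4a1, 0.83 for Col4a2, 0.68 for Lamc1 and 1.17 for Lamb1, and in plate 2 the differences were -0.37, -0.37, -0.48 and -0.27, in log2 CPM with a prior count of 2. The control sum of plate 1 stood apart: 22 of its 43 wells had none of the 4 genes, against 9 of 47 NKX1-2 wells of plate 1, and in plate 2 the numbers were 11 of 44 NKX1-2 wells and 7 of 43 control wells. That control sum also had the lowest median depth, 22391 counts per well against 30453 in the NKX1-2 wells of plate 1, and the least Sox2, an epiblast gene, at 1.84 CPM against 8.50 CPM in the NKX1-2 sum of plate 1. Plate 2 had 10.1 CPM of Sox2 in NKX1-2 and 10.95 CPM in control wells. Wells with an Xist count and no Y-linked count were 35 of 47 NKX1-2 wells and 15 of 43 control wells in plate 1, and 20 of 44 and 6 of 43 in plate 2. The part of depth, lineage markers and Xist in these differences was not tested.

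In the morula, 0 of 8 tested members were called, beside 0.552% of 10873 genes, and DESeq2 also called 0. An unadjusted p under 0.05 was found for 3 of 8, beside 10.7% of all genes. P4ha2 had a log2 fold change of -0.44 (SE 0.17, edgeR adjusted p = 0.323), and it was lower with NKX1-2 in both plates, by 0.67 and 0.23. Nid1 had -0.63 (SE 0.29, edgeR adjusted p = 0.464), lower in both plates, and its 2 NKX1-2 sums lay below its 2 control sums. Lamc1 had 1.82 (SE 0.77, edgeR adjusted p = 0.386) and was higher in both plates, from 13 and 7 counts in NKX1-2 wells and 5 and 0 counts in control wells. P4ha2 passed when blastocyst plate 1 (-0.43, edgeR adjusted p = 0.0137) or blastocyst plate 2 (-0.43, adjusted p = 0.0125) was left out of the shared fit. The fold was the same there, and those fits called 833 of 12002 and 838 of 11926 genes, against 60 with all plates. The other values were 0.01 for Gata6 (SE 0.14), 0.03 for Gata4 (SE 0.23), -0.49 for Col4a1 (SE 0.66), -0.72 for Col4a2 (SE 0.46) and -0.41 for Lamb1 (SE 0.67).

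An interaction term compared the NKX1-2 minus control difference of the blastocyst with that of the morula. It called 0 of 8 members, beside 0.0184% of all genes, and 0 of 8 had an unadjusted p under 0.05, beside 6.43% of all genes; DESeq2 called 0 members. The largest value was that of Lamc1, -1.83 (SE 0.94, edgeR adjusted p = 0.783). At the shares over all genes given here and for the morula, no call among 8 members is no finding about them.

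Other genes of the same roles moved with stage in both directions. Of 23 other primitive endoderm genes, 10 were tested, and 4 were higher and 4 lower in the blastocyst of NKX1-2 wells, 5 and 3 in control wells. Over all genes tested, 21.9% were called higher and 24.0% lower in NKX1-2 wells, and 20.1% and 21.6% in control wells. The median log2 fold change of the list was 0.27 and 0.46, against -0.02 and -0.01 over all genes. Among those that rose, with log2 fold changes in NKX1-2 and control wells, were Lrp2 (6.07, 5.80), Cubn (4.22, 4.22) and Dab2 (3.64, 3.15), the megalin and cubilin receptors and their adaptor, and edgeR adjusted p was at most 0.000149 for each. Apoa1 rose by 1.26 and 5.49 (edgeR adjusted p at most 0.00525). Among those that fell were Amn (-2.25, -1.64), which encodes the partner of cubilin, the receptor adaptor gene Grb2 (-1.31, -1.35) and the coregulator gene Cited1 (-0.99, -1.18), with edgeR adjusted p at most 0.0159. Fgfr1, an FGF receptor gene, fell in NKX1-2 wells (-1.08, edgeR adjusted p = 0.0166) and had -0.44 in control wells (edgeR adjusted p = 0.392). Lrp2 and Dab2 are also in the trophectoderm list. Apoa1, an apolipoprotein gene, was called in both stages for the morpholino, higher with NKX1-2 in the morula (2.84, SE 0.42, edgeR adjusted p = 0.00486) and lower in the blastocyst (-1.38, SE 0.23, edgeR adjusted p = 0.0101), with a difference between the stages of -4.22 (SE 0.48, edgeR adjusted p = 0.00146). Apoe was lower with NKX1-2 in the blastocyst (-1.20, SE 0.21, edgeR adjusted p = 0.0125).

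Of 22 other basement membrane components, 5 were tested in NKX1-2 wells and 4 in control wells, and 3 were higher in each, none lower. The shares over all genes were 21.9% higher and 24.0% lower in NKX1-2 wells, and 20.1% and 21.6% in control wells. Lama5, the laminin alpha 5 chain, rose by 2.81 in NKX1-2 and 1.76 in control wells, and Nid2, the second nidogen, by 3.13 and 2.30 (edgeR adjusted p at most 0.00372). Tinagl1, which encodes a matricellular protein, rose by 2.02 in control wells (edgeR adjusted p = 0.000378) and had 0.40 in NKX1-2 wells (edgeR adjusted p = 0.425). Lama3, a laminin alpha chain of epithelia, rose by 4.68 in NKX1-2 wells from 1 count in all morula wells. Lama1, the alpha chain best known from early embryonic laminin, had 2 counts in the blastocyst and 3 in the morula. The genes of the other collagen IV chains, Col4a3, Col4a4, Col4a5 and Col4a6, had 0, 1, 0 and 0 counts in the blastocyst and 1, 2, 0 and 0 in the morula.

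Of 22 genes of collagen processing and matrix receptors found in the files, 17 were tested in NKX1-2 wells, with 8 higher and 4 lower in the blastocyst. In control wells 16 were tested, with 5 higher and 1 lower. Beside these, 21.9% of all genes were called higher and 24.0% lower in NKX1-2 wells, and 20.1% and 21.6% in control wells. Plod2, a collagen lysyl hydroxylase, rose by 4.24 in NKX1-2 and 5.94 in control wells, Ppib, a prolyl isomerase of the endoplasmic reticulum, by 3.05 and 3.66, and P4ha1, the paralogue of P4ha2, by 1.59 and 1.96. Itga6, a laminin receptor subunit, rose by 2.53 and 1.98. All these values had an edgeR adjusted p of at most 0.00343. P4ha1 thus passed in both fits in which P4ha2 did not; the difference between the paralogues was not tested. Ddr1, a collagen receptor kinase, was lower by 1.81 in NKX1-2 and 1.69 in control wells (edgeR adjusted p at most 0.00326). No gene of these 2 lists was called for the morpholino at either stage, beside 0.552% of all genes in the morula and 0.727% in the blastocyst. At such shares, no call among so few genes is no finding about the lists.

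Within wells, the 4 collagen and laminin chains were detected singly and together: 68 of 177 blastocyst wells had 2 or more and 60 had 1, while 23 of 191 morula wells had 2 or more and 61 had 1. The depths of the stages differ and these counts were not thinned. Among blastocyst wells, 20 of 91 with NKX1-2 and 29 of 86 with control morpholino had none of Col4a1, Col4a2, Lamc1 and Lamb1, and 3 and 2 wells had all 4. In the morula 54 of 95 NKX1-2 wells and 53 of 96 control wells had none, and no well had all 4. Median totals by number of genes detected, at 0 to 4 genes, were 30346, 31688, 33834.5, 34615 and 35768 counts in blastocyst NKX1-2 wells and 22642, 26561, 31341, 40148.5 and 38108.5 in blastocyst control wells. At 0 to 3 genes they were 47620, 49185, 47091 and 80510 in morula NKX1-2 wells and 41095, 40880.5, 56421 and 60102 in morula control wells. Depth thus rose at each step in blastocyst NKX1-2 wells and not at each step in the other 3 groups.

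**Figure D4:**
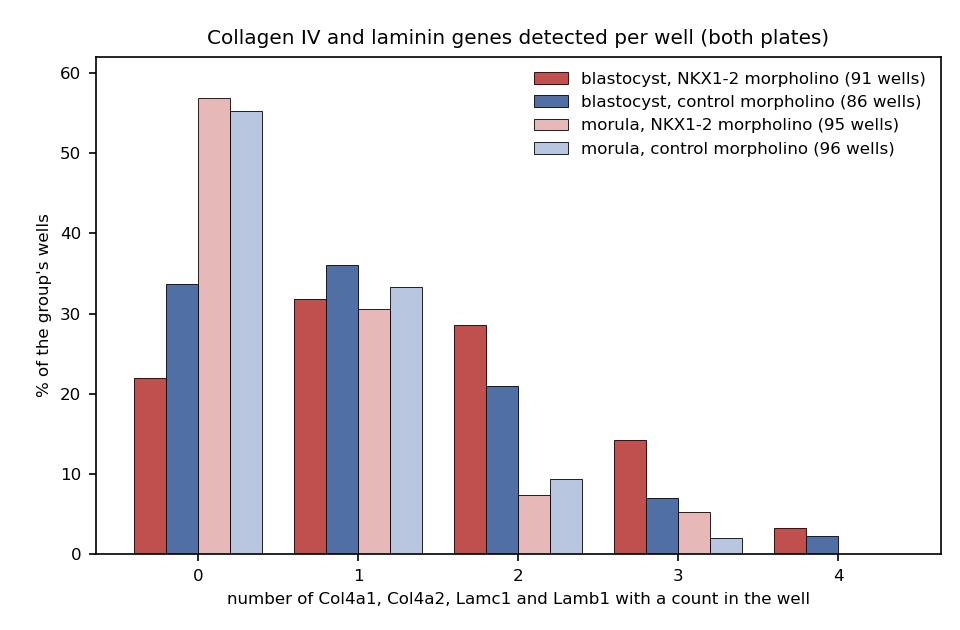
Percent of each group's wells (vertical axis from 0) by how many of Col4a1, Col4a2, Lamc1 and Lamb1 had a count in the well, with both plates of a stage together. Morula bars peak at 0 genes (56.8% and 55.2%), while 3 or 4 genes had counts in 16 NKX1-2 and 8 control wells of the blastocyst.

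Correlations between members over wells were weak. Spearman's rho of log2(CPM + 10) was computed within each plate, over 90 and 87 wells in the blastocyst plates and 96 and 95 in the morula plates, and is given as a description, since wells of a plate share library and depth. With both morpholinos together, Col4a1 and Col4a2 had 0.294 and 0.160 in the blastocyst plates and 0.302 and 0.145 in the morula plates. By arm, NKX1-2 and control wells had 0.316 and 0.134 in blastocyst plate 1 and 0.038 and 0.271 in plate 2. In the morula they had 0.405 and 0.225 in plate 1 and 0.305 and 0.047 in plate 2. The values below are for both morpholinos together. Col4a2 was found in 12 of 22 blastocyst wells of plate 1 with a Col4a1 count and in 19 of 68 without, and in 17 of 39 and 17 of 48 in plate 2, where median totals were 30437 and 27091 in plate 1 and 36430 and 33785 in plate 2. The 6 pairs of Col4a1, Col4a2, Lamc1 and Lamb1 had mean rho values of 0.0386 to 0.227 in the blastocyst, against -0.160 to 0.234 for the 39 other pairs. Gata6 and Gata4, which fell together over the stages, had -0.0456 and -0.0660 over wells of the blastocyst plates and 0.0197 and 0.0679 in the morula plates. In sparse counts, values of this size are no finding.

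**Figure D5:**
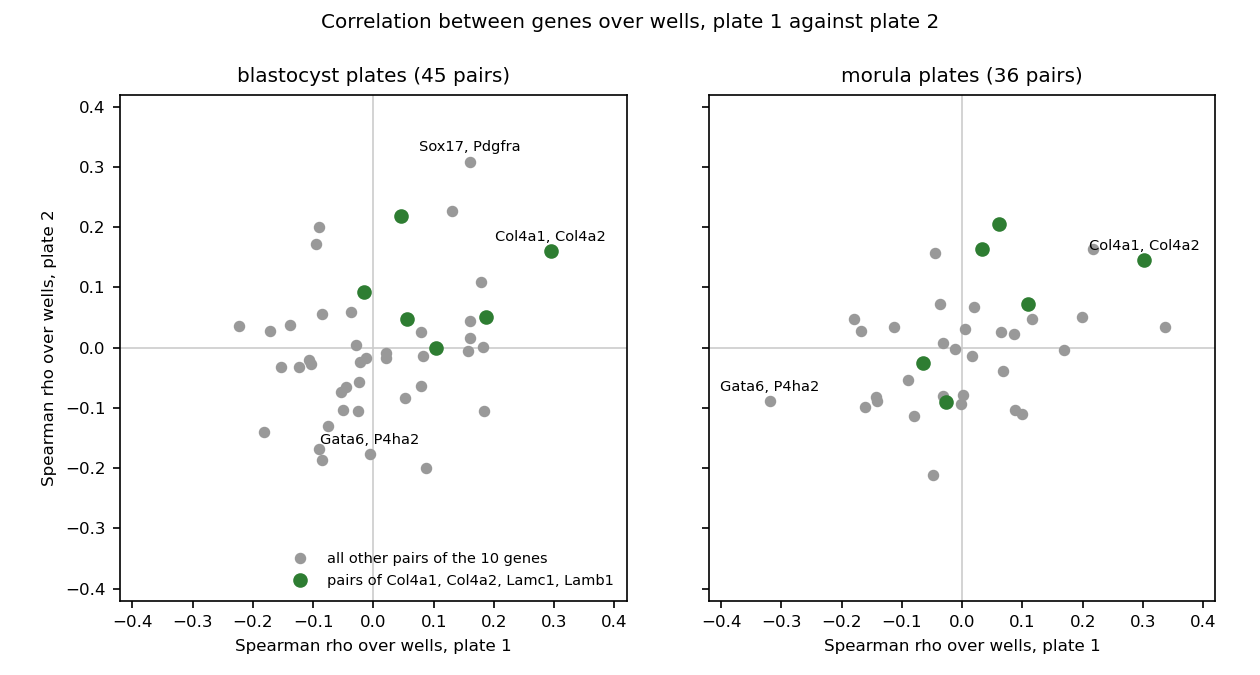
Spearman's rho over wells of both morpholinos for each pair of the 10 genes, plate 1 on the horizontal and plate 2 on the vertical axis. The blastocyst has 45 pairs and the morula 36, without Sox17. Green points are pairs of Col4a1, Col4a2, Lamc1 and Lamb1. Most points lie within 0.2 of 0, and Col4a1 with Col4a2 is above 0 in all 4 plates.

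Members were also set against epiblast and trophectoderm genes over the wells of each plate, both morpholinos together. A difference between the arms can therefore enter the rho values below. Gata6 and Nanog, the pair that separates primitive endoderm from epiblast precursors, had rho values of 0.14 and -0.05 in the blastocyst plates and -0.24 and -0.17 in the morula plates, and Nanog counts were found in 51 of 75 blastocyst wells of plate 1 with a Gata6 count and 5 of 15 without, and in 70 of 85 and 2 of 2 in plate 2. The wells with Gata6 were deeper, with median totals of 29028 against 21383 in plate 1. The summed collagen and laminin chains had 0.34 and 0.30 with Sox2 in the blastocyst plates, and 0.30 and -0.02 in the morula plates. In the blastocyst plates that sum had 0.24 and 0.21 with Nanog, 0.09 and 0.14 with Fgf4 and 0.20 and 0.13 with the whole epiblast list. With the trophectoderm factors the values were 0.08 and -0.15 for Gata3 and 0.02 and -0.09 for Cdx2. With the whole trophectoderm list they were 0.15 and -0.21, so in plate 1 both lists had a value above 0. Of the 19 blastocyst wells with Pdgfra, 17 held Gata6, 17 held Nanog, 10 held Lamb1, 10 held Col4a2 and 0 held Gata4. Over all blastocyst wells the shares were 90.4% for Gata6, 72.3% for Nanog, 32.8% for Lamb1, 36.7% for Col4a2 and 3.39% for Gata4. Wells with Pdgfra were deeper than those without, with median totals of 32770 against 26879.5 counts in plate 1 and 43609 against 34391 in plate 2.

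The genes most like the members over blastocyst wells were sought among 7076 genes found in at least 20% of the wells of each plate. For the summed Gata6, Gata4, Sox17 and Pdgfra, the highest mean rho values over the 2 plates were those of Pdp2 (0.324), Tbx3 (0.323), Rnaseh2b (0.299), Shkbp1 (0.281) and Mettl21a (0.264), where the 99th percentile of all genes was 0.189. That sum is mostly Gata6. For the 6 matrix genes they were Anp32e (0.305), Med14 (0.291), Mrpl40 (0.275), Selenot (0.274) and Twistnb (0.267), with a 99th percentile of 0.179. The highest of the 7076 genes lie above the 99th percentile of the same genes by construction, so the percentile gives no support. In sparse counts, values of this size are no finding. None of the 10 genes named is in the lists of primitive endoderm or basement membrane genes. Members were left out of the search and list genes with few counts could not enter it, so this is no finding about the lists.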

How the data were processed

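Counts per gene and well were deposited by the authors as whole numbers, 1 matrix per plate. Reads were processed with TopHat2 on GRCm38 (mm10), per the submitters' processing notes. The labels' protocols name a polyA-capture TruSeq library, and their descriptions 10x Genomics. How reads were counted, with or without strand, and whether the values are reads or molecules is not given in the sources used here. Groups came from the label that puts NKX1-2 morpholino in odd and control in even wells.

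A well was used if 2000 or more genes had a count, which left 368 of 384 (6966 to 119729 counts each). A run of 344 genes with no morula count in any well, 1.68% and 1.67% of all counts in blastocyst plates 1 and 2, was removed before fitting; none is a member. Counts were summed per plate and morpholino and fitted with edgeR 4.0.16 (TMM, filterByExpr, robust quasi-likelihood, R 4.3.3). Morpholino contrasts used all 8 sums, with a term for each plate, since both arms share each plate, and stage contrasts used the 4 sums of a morpholino without a block. P-values were Benjamini-Hochberg adjusted over all genes tested, with a threshold of 0.05. The test was checked on simulated counts with known changes, the same fixed dispersion (spread between sums) for every gene and no plate effect. It recovered 43.8% of 2-fold and 86.5% of 4-fold changes for the morpholino in the blastocyst. In the morula it recovered 71.4% and 99%, and across stages in control wells 62.9% and 97.9%. The genes changed there had higher mean counts than Col4a1, Col4a2, Lamc1 and Lamb1, so recovery for these chains was not checked. Recovery under the spread of the real plates was not checked either. Fitted folds of genes with few counts depend on the prior count.

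CPM is counts per 1000000 counts of a sum, and per-length values divide it by merged exon length (GENCODE M21). Shares at 10000 counts are hypergeometric expectations, with 3 shallower wells left out, 1 each in blastocyst plate 1 control, blastocyst plate 2 NKX1-2 and morula plate 1 NKX1-2. Shares had no test, since 2 plates against 2 cannot give an exact two-sided permutation p under 0.333. Intervals are exact at 95% and cover counting error only. Doublets were not called.

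The members and gene lists were chosen with earlier results of these data known. Genes named are the 10 members, up to 4 called genes with the largest change per list and comparison, Nanog, Sox2, Fgf4, Cdx2 and Gata3 for co-expression, and the 5 genes most like each of the 2 groups of members; genes of the lists with few counts were named after their values were seen. DESeq2 1.42.0, other filters, wells with Xist and no Y-linked count, and leaving out each plate were tried as alternatives.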

Additional observations from a re-analysis of the deposited data

How the results depend on the processing

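Of 464 recomputed values of 39 log2 fold changes of the members, 415 kept their direction and side of the threshold. Of the 11 that passed, 0 of 128 alternatives reversed and 16 no longer passed. Genes called for the morpholino in the morula, 60, became 15 with DESeq2, 179 without a filter on low counts, 8 in wells with Xist and no Y-linked count, 34 without the plate block and 13 to 838 on leaving out a plate, with 0 to 1 members. In the blastocyst 79 became 20, 254, 14 and 43 under the same settings, and 99 to 635. For the interaction 2 became 1, 27, 0 and 1, also 1 with every well, and 4 to 252. Stage calls were 2998 with DESeq2 and 2684 in Xist wells for NKX1-2, with 2266 to 3592 genes and 4 to 6 members on leaving out a plate; for control wells they were 2513 and 1602, with 2586 to 4213 genes and 2 to 5 members, and 3 of 5 tested members in Xist wells. The cause of these moves was not tested.

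No reversed value had passed. For the morpholino in the morula, log2 fold changes were Col4a1 0.49 and Gata4 -0.13 in Xist wells, and Gata4 -0.049 and Gata6 -0.031 without the highest well. Leaving out a plate gave -0.067 to 0.16 for Gata4, -0.046 to 0.10 for Gata6 and -1.64 to 0.50 for Lamb1, each turned without morula plate 1. In the blastocyst Lamc1 was 0.057 with DESeq2, 0.033 without the filter, 0.0079 with every well and 0.34 in Xist wells, and Gata4 -0.084 in Xist wells. Leaving out a plate gave -0.57 to 0.74 for Lamc1, -0.43 to 1.72 for Col4a1, -0.44 to 0.87 for Col4a2, -0.14 to 0.32 for Gata6, -0.32 to 1.23 for Lamb1, -0.27 to 0.090 for P4ha2, -0.42 to 1.74 for Gata4 and -0.60 to 0.81 for Nid1, the extremes lying at the 2 blastocyst plates. The interaction ran from -0.16 to 1.97 for Lamb1, -0.15 to 0.31 for Gata6 and -0.45 to 1.70 for Gata4. In control wells across stages P4ha2 was -0.011 without the filter and -0.071 to 0.32 on leaving out a plate, and Nid1 0.050 without the highest well and -0.48 to 0.39.

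With the replicate number as a replicate block in the stage fits, 6 of 8 members and 4732 genes passed in NKX1-2 wells and 4 of 7 members and 3691 genes in control wells, where Col4a2 was lost (1.07, edgeR adjusted p = 0.0704). Same-numbered plates of the 2 stages deviated with correlations of 0.00276 in NKX1-2 and 0.0301 in control sums. The arms that do share a plate had -0.00233 in the blastocyst and 0.262 in the morula. A value near 0 therefore cannot show that same-numbered plates share nothing. Counts of a few per sum limit Sox17, Pdgfra, Gata4 in the blastocyst and Lamc1 in the morula.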
